A study of Mus musculus with 9 samples.

Results

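The 67 genes described here were chosen by their measured values. Each had a mean of at least 5 FPKM (fragments per kilobase of transcript, scaled to the mapped reads of the library) over 9 libraries of mouse peritoneal macrophages, and its lowest value among the 6 libraries of cells here called SHP2-deficient (3 from M-Shp2-/- mice and 3 from wild-type cells given the SHP2 inhibitor SHP099) was at least 1.2 times its highest value among the 3 wild-type libraries. The name covers both loss of the gene and inhibition of the enzyme. They were 67 of the 54059 genes in the table, of which 8285 had a mean high enough to pass. The differences of either group from wild type are what chose the genes, so they are given as a description without a test, and both comparisons use the same 3 wild-type libraries. The rule did not compare M-Shp2-/- with SHP099, a comparison that was tested gene by gene, but it set a floor under all 6 values, so the side to which the members lean between these groups is a description too.

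RNA was sequenced from peritoneal macrophages of C57BL/6 mice in 3 groups of 3 libraries. The mice were 8 weeks old by the labels and 8 to 10 weeks by the study's methods. The cells had been drawn into the peritoneum by an injection of starch broth and kept by their adherence, and per the study's methods all 3 groups received imiquimod (IMQ), an agonist of TLR7, for 4 h in vitro, at 10 µg/ml in the wild-type and SHP099 groups. Wild-type macrophages received IMQ alone, the SHP099 group consisted of wild-type macrophages given 10 µM SHP099 for 2 h before IMQ, and M-Shp2-/- macrophages came from Lyz2-cre; Shp2 fl/fl mice. No group without IMQ was analysed here, and the 3 groups thus show levels after IMQ and not the response to it. Lyz2-cre deletes in monocytes, mature macrophages and granulocytes, and when SHP2 was lost in the M-Shp2-/- cells was not measured. The labels do not say whether the libraries of a group came from separate animals, and p-values here measure only the spread between these libraries. Read totals recovered from the FPKM steps were 44373872, 50981653 and 42530685 in wild-type, 43183817, 41150078 and 45593530 in M-Shp2-/-, and 43891945, 39840773 and 43841718 in SHP099 libraries, and the least covered member value rested on 140 reads.

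SHP2, encoded by Ptpn11, is a cytosolic tyrosine phosphatase that is recruited through its SH2 domains to receptors and adaptors and promotes RAS-MAPK signalling, and SHP099 holds the enzyme in its closed, inactive form. Peritoneal macrophages engulf cells and particles and break down their lipids, heme and proteins, whose iron and cholesterol are then stored or exported. Genes that serve these tasks, glutathione synthesis and membrane traffic are among the 67.

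Ptpn11 was measured at 45.8, 44.02 and 39.99 FPKM in wild-type, 18.6, 17.8 and 18.9 in M-Shp2-/- and 43.04, 42.1 and 39.6 in SHP099 libraries. The M-Shp2-/- libraries lay below all others and the SHP099 libraries overlapped wild type. M-Shp2-/- was lower than SHP099 by a log2 difference of -1.13 ± 0.08 (SE, n = 3 and 3; limma, adjusted p = 0.0109). Ptpn11 was not called with the replicate block or without M-Shp2-/- replicate 1, M-Shp2-/- replicate 2 or any single SHP099 replicate, where limma called 0 to 2 genes. The call was lost but not the separation: whichever library was left out, M-Shp2-/- values (17.8 to 18.9 FPKM) lay under SHP099 values (39.6 to 43.04). All 7 of the 7 macrophage markers reached a mean of 1 FPKM, with Lyz2 the most abundant. Summed, the macrophage markers were at 9416, 12033 and 9693 FPKM in wild-type, 6890.1, 6879 and 7192 in M-Shp2-/- and 11009, 12071 and 12559.6 in SHP099 libraries. Without Lyz2 the sum was 1976, 1805 and 1743 in wild-type, 2027, 2136 and 1785 in M-Shp2-/- and 1661, 1791 and 1844 in SHP099 libraries, so the lower sums of M-Shp2-/- lay in Lyz2. Most of that sum was Cd68, at 1294 to 1498 FPKM in wild-type, 1227 to 1740 in M-Shp2-/- and 1211 to 1271 in SHP099 libraries. Csf1r was at 181 to 211 FPKM in SHP099, above wild type (58.2 to 111). Mertk was at 3.28 to 4.35 FPKM in M-Shp2-/-, under wild type (6.10 to 13.3). Fcgr1, Adgre1 and Itgam overlapped wild type in both groups. Markers of resident large peritoneal macrophages summed to 20.2, 39.1 and 12.3 FPKM in wild-type, 21.5, 15.8 and 23.8 in M-Shp2-/- and 25.6, 17.6 and 31.1 in SHP099 libraries (4 of 5 at a mean of 1 FPKM or more, Prg4 most abundant), with Gata6, the factor that defines these cells, at 0.380 to 2.97 FPKM. In bulk RNA, fewer cells of a type and less RNA per cell cannot be told apart. The M-Shp2-/- mice also carry Lyz2-cre, and its part in their Lyz2 level was not tested.

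Markers of other cell types were low, with exceptions. Fibroblast markers (5 of 6 at a mean of 1 FPKM or more, Col1a1 most abundant) summed to 63.8, 303 and 39.8 FPKM in wild-type, 135, 51.4 and 586 in M-Shp2-/- and 361, 137 and 101 in SHP099 libraries. B cell markers (2 of 5, Ighm most abundant) summed to 9.905, 16.5 and 47.00 FPKM in wild-type, 34.9, 17.3 and 178 in M-Shp2-/- and 19.7, 13.6 and 27.7 in SHP099 libraries. M-Shp2-/- replicate 3 was highest of all in both sums, and fibroblast markers also differed several-fold within each other group. Neutrophil markers (2 of 6) summed to 38.9, 96.8 and 60.6 FPKM in wild-type, 42.7, 40.9 and 102 in M-Shp2-/- and 51.5, 57.3 and 77.3 in SHP099 libraries, nearly all of it S100a8. Proliferation markers (3 of 3, Mki67 most abundant) summed to 63.3, 71.04 and 44.6 FPKM in wild-type, 50.1, 40.95 and 74.1 in M-Shp2-/- and 57.7, 36.8 and 48.3 in SHP099 libraries. The highest sum in any library was 7.72 FPKM for T cells (1 of 6, Lck most abundant), 9.54 for mesothelial cells (1 of 5, Wt1) and 5.32 for endothelial cells (1 of 3, Kdr). It was 4.82 FPKM for mast cells (0 of 5, Tpsb2), 1.83 for dendritic cells (0 of 5, Zbtb46), 0.811 for NK cells (0 of 3, Prf1) and 0.720 for eosinophils (0 of 4, Siglecf), whose marker Ear1 was at 0 in all 9 libraries. The mast cell sum was 0.252 to 1.43 FPKM in SHP2-deficient libraries, under all wild-type values (1.59 to 4.82). The endothelial sum was 1.16 to 1.67 FPKM in SHP099 libraries, under wild type (4.16 to 5.32), with M-Shp2-/- at 1.81 to 4.91. The dendritic cell sum was 1.33 to 1.83 FPKM in M-Shp2-/-, above wild type (0.809 to 1.28), and 0.619 to 0.784 in SHP099, under it. The Y-linked genes Ddx3y, Uty and Kdm5d were at 0 in every library and Xist at 91.7 to 159.8 FPKM. None of these markers is among the 67 genes, and the part of other cell types in the members' levels was not tested.

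Libraries differed within groups. Over log2(FPKM + 1), M-Shp2-/- replicates 1 and 2 correlated across genes at 0.992, whereas replicate 3 correlated with them at 0.967 and 0.954 and more closely with SHP099 replicate 1 (0.984) and wild-type replicate 2 (0.980); genes are not independent replicates, and these values are a description. Wild-type replicate 1 also correlated more closely with M-Shp2-/- replicates 1 (0.986) and 2 (0.988) than with wild-type replicates 2 (0.984) and 3 (0.976), and wild-type replicate 3 more closely with SHP099 replicate 3 (0.978) than with wild-type replicates 1 (0.976) and 2 (0.974). The mean correlation with the own group was lowest for M-Shp2-/- replicate 3, at 0.961, and the counts of genes called between M-Shp2-/- and SHP099 are given with and without it. Wild-type replicate 3 had the lowest scaling factor by the median of ratios, 0.849 against 0.979 to 1.096 in the other 8 libraries.

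**Figure D1:**
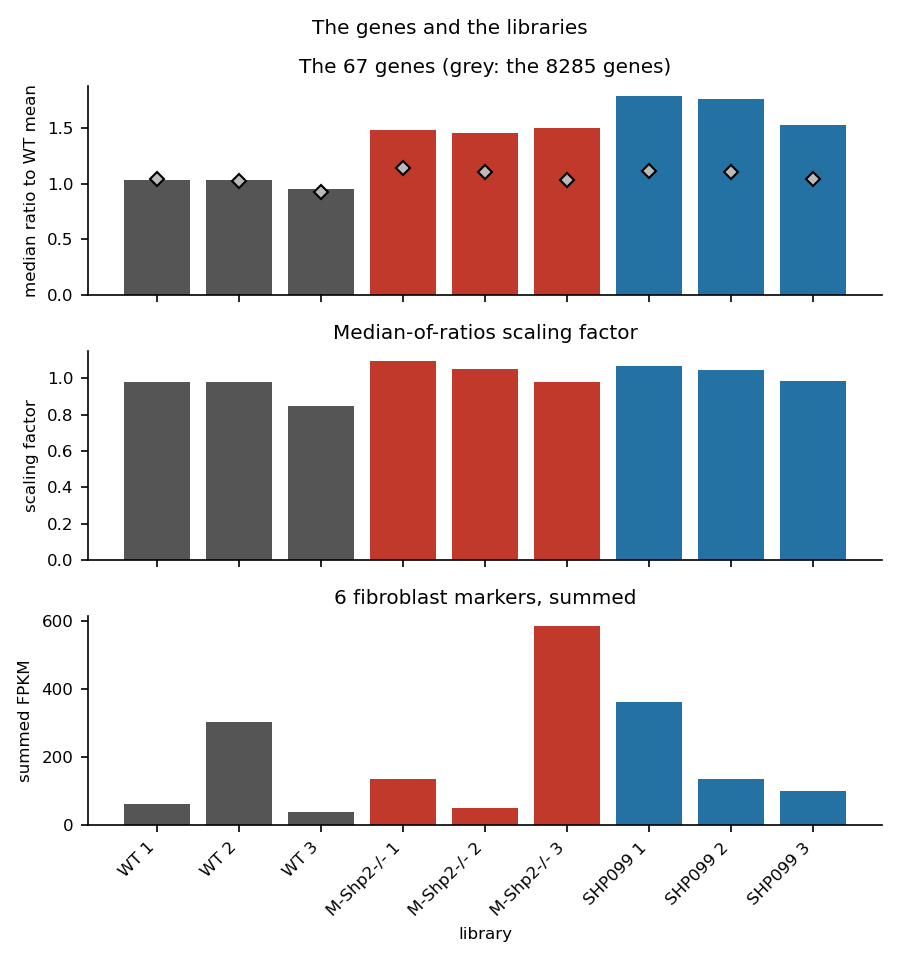
Bars by library give the median level of the 67 genes relative to the gene's wild-type mean (diamonds, the median of the 8285 genes), the median-of-ratios scaling factor and the summed FPKM of 6 fibroblast markers, with the wild-type, M-Shp2-/- and SHP099 libraries in separate colours. Wild-type replicate 3 has the lowest factor, 0.849, and M-Shp2-/- replicate 3 the highest fibroblast sum, 586 FPKM.

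Of the 8285 genes that could have passed, 978 (11.8%) were higher in all 6 SHP2-deficient libraries than in all 3 wild-type libraries, and 187 (2.26%) were lower. At a ratio of 1.2 the counts were 69 and 53, and at 1.5 they were 3 and 23, so the excess on the higher side was made of small differences. The 67 members are the 69 without Slc43a2 and Gm17586, which the rule left out by name along with 10 others that did not meet both thresholds. Just inside the threshold lay Paip2b, Nhlrc3 and Top3a, with ratios of 1.2065, 1.2037 and 1.2021. Just outside lay Tmem86a, Tmem250-ps and Bola1, with ratios of 1.1997, 1.1992 and 1.1991.

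The median gene also differed between groups. Over the 8285 genes it was higher by 0.13 in M-Shp2-/- and by 0.12 in SHP099 than in wild type, as log2 differences, though single libraries overlapped: relative to the wild-type mean it stood at 1.042, 1.026 and 0.925 in wild-type, 1.137, 1.105 and 1.029 in M-Shp2-/- and 1.1099, 1.102 and 1.042 in SHP099 libraries. Relative to the median gene, the median member was higher by 0.41 in M-Shp2-/- and by 0.57 in SHP099 (0.55 and 0.69 as deposited). With the libraries scaled by the median of ratios, the median of all 8285 genes was -0.02 in both comparisons and that of the members 0.40 and 0.57. The balance of genes without overlap then turned, to 322 higher and 487 lower (39.8% of them higher, against 83.9% as deposited), and with quantile normalization it was 466 and 300. All 67 members kept group means above wild type in both comparisons under each of these scalings, but the number whose groups did not overlap fell to 62 and 56. A ratio of 1.2 was kept by 64 members when libraries were set to an equal sum, by 20 after quantile normalization and by 18 after scaling by the median of ratios. Those 18 were Cox6a2, Rnf128, Ptgir, Slc48a1, Aatk, Atp13a2, Tgfbi, Panx1, Atraid, B4gat1, Gm5617, Gclm, Slc22a4, Zscan29, Ift172, Parp1, H1f0 and Ptpn4.

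**Figure D2:**
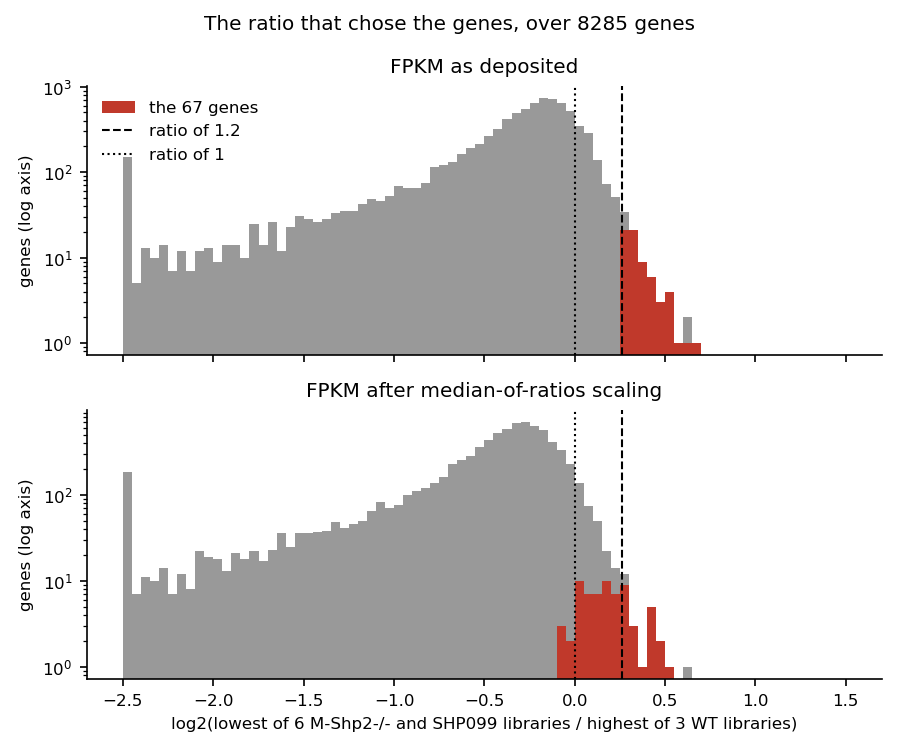
Histograms on a log axis of the number of genes at each log2 ratio of the lowest of the 6 SHP2-deficient libraries to the highest wild-type library, over 8285 genes, with values beyond the axis at its ends, as deposited and after median-of-ratios scaling, and with the 67 members in red and a dashed line at a ratio of 1.2. As deposited all 67 members lie beyond the line, and after scaling 18 do.

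As folds of group means, the members were 1.28 to 2.37 times (median 1.504) their wild-type mean in M-Shp2-/-, and in SHP099 from 1.33 times upward (median 1.71). At least a 2-fold mean was reached by 3 members in M-Shp2-/- and 9 in SHP099, and by 1, Mettl7a1, in both. Relative to each gene's wild-type mean, the median member stood at 1.03, 1.03 and 0.951 in the wild-type libraries, at 1.48, 1.46 and 1.499 in M-Shp2-/- and at 1.79, 1.76 and 1.52 in SHP099. The highest of the 9 values was in SHP099 replicate 2 for 31 members and in SHP099 replicate 1 for 27, and the lowest was in wild-type replicate 3 for 39. M-Shp2-/- replicate 3 lay level with its group in the median member. Members were mostly of modest abundance, with a median mean of 12.3 FPKM (25.02 over the 8285 genes) and a range from 5.59 for B4gat1 to 237 for Lipa.

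**Figure D3:**
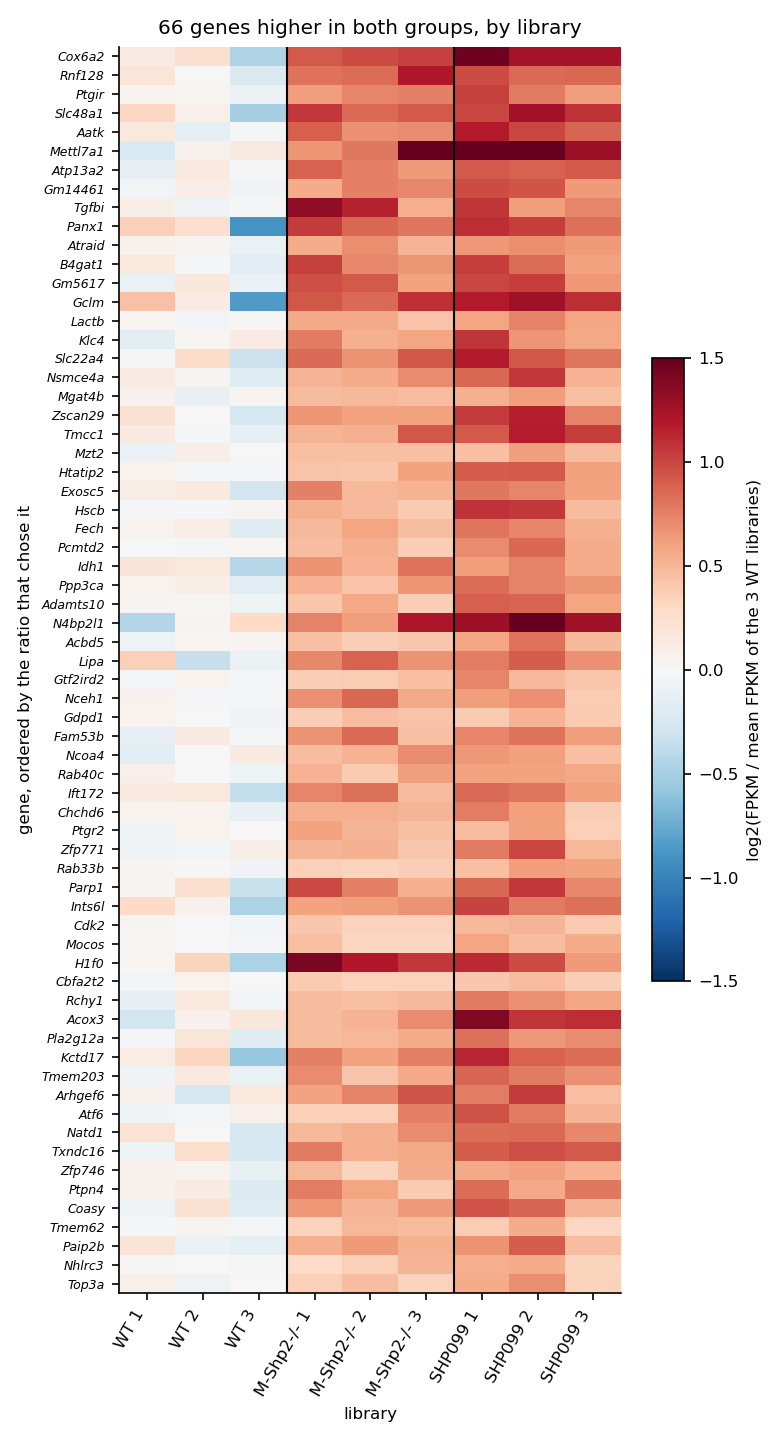
Heat map of log2(FPKM over the gene's mean in the 3 wild-type libraries) for 66 of the 67 members (lines, in order of ratio) in the 9 libraries (columns), with red above and blue below the wild-type mean and colours saturated at the ends of the scale. The median member stands at 0.951 to 1.03 times that mean in wild-type, 1.46 to 1.499 times in M-Shp2-/- and 1.52 to 1.79 times in SHP099 libraries.

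The members were looked up in the RefSeq promoter table (build GRCm38.p6) by symbol, and 51 of 67 had an entry. In the 250 bases before each start, both strands were searched for 10 motifs, none of which contains another, and the shares are set beside those of all 27025 promoters. The E-box CACGTG was in 7 of 51 member promoters (13.7%, against 6.05% of all), those of Klc4, Slc22a4, Exosc5, Gtf2ird2, Nceh1, Parp1 and Natd1. The KLF motif CCACCC was in 17 (33.3%, against 27.7%), the TATA box TATAAA in 5 (9.80%, against 12.97%) and the CEBP motif TTGCNNAA in 3 (5.88%, against 9.55%). The RORE motif TAGGTCA and the PU.1 motif GAGGAAGT were each in 2 (3.92%, against 2.27% and 2.44%). The AP-1 motif TGANTCA and the D-box (TTATGTAA or TTACGTAA) were each in 1 (1.96%, against 6.87% and 0.962%). The FOXO motif GTAAACA and the CRE TGACGTCA were in 0 (3.09% and 1.62% of all promoters). These matches describe letters and no binding was measured. Printed 5′ to 3′ along the gene's strand, with searched motifs or their reverse complements in capitals, are the promoters of 5 of the members that held a motif and overlapped no annotated exon: Ptgir (chr7:16906240-16906489, plus strand), Gm14461 (chr2:78237297-78237546, plus), Lipa (chr19:34527475-34527724, minus), Slc22a4 (chr11:54028105-54028354, minus) and Parp1 (chr1:180568641-180568890, plus).
Ptgir: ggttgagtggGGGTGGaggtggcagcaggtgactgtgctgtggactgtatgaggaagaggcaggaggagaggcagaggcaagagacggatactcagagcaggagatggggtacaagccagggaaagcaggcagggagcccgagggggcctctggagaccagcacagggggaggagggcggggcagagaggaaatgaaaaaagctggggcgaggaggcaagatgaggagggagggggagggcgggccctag
Gm14461: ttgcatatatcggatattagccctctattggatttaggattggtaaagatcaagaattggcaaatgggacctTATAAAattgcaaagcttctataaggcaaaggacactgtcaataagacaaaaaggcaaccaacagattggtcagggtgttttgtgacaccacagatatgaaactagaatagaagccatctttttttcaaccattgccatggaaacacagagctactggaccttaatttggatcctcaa
Lipa: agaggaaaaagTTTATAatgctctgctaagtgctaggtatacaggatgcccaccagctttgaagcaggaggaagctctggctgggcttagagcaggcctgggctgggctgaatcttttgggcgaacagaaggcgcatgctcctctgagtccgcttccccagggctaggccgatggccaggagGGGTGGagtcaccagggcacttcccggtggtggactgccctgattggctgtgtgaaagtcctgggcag
Slc22a4: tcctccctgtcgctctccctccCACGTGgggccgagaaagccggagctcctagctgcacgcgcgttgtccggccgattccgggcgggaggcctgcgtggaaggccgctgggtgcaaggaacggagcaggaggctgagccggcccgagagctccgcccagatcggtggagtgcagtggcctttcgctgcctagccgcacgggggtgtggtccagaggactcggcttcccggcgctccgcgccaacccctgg
Parp1: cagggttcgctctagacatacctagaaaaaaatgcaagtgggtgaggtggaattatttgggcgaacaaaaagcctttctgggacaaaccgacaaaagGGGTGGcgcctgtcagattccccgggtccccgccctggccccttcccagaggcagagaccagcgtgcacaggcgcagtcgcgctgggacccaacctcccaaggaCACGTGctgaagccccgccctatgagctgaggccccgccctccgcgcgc
The Slc22a4 promoter holds an E-box whose first base lies 228 bases before the start, and that of Parp1 an E-box 49 bases and a KLF motif 153 bases before it. The Ptgir promoter has a KLF motif at 240 bases, the Lipa promoter a KLF motif at 68 and a TATA box at 239, and that of Gm14461 a TATA box at 178. The 3 KLF motifs and the TATA box of Lipa lie on the other strand.

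Grouped by what their products do, a grouping made after the values were seen and used for no test, 4 members handle heme and iron. Slc48a1, which carries heme out of the phagolysosome, was at 152, 129.7 and 86.7 FPKM in wild-type, 256, 222 and 233 in M-Shp2-/- and 246, 293 and 262 in SHP099 libraries. Its fold of means was 1.93 in M-Shp2-/- and 2.17 in SHP099 over wild type. The wild-type values spread most widely of the 3 groups, with replicate 3 lowest, and the SHP2-deficient groups overlapped each other. Ncoa4, the receptor that brings ferritin to autophagosomes, was at 39.3, 43.9 and 48.2 FPKM in wild-type, 60.2, 62.9 and 71.4 in M-Shp2-/- and 68.6, 67.3 and 60.1 in SHP099 libraries. Hscb, a co-chaperone of iron-sulfur cluster assembly, was at 17.7, 17.6 and 18.5 FPKM in wild-type, 26.01, 25.1 and 23.6 in M-Shp2-/- and 38.1, 37.5 and 25.1 in SHP099 libraries. Ncoa4 was about level between M-Shp2-/- and SHP099, whereas SHP099 replicates 1 and 2 were above every other Hscb value and SHP099 replicate 3 lay among M-Shp2-/-. Fech, ferrochelatase, which inserts iron into protoporphyrin, was 1.43 times its wild-type mean in M-Shp2-/- and 1.62 times in SHP099. Of the 4, Slc48a1 alone kept a ratio of 1.2 after median-of-ratios scaling.

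Lipid, lysosome and peroxisome genes made up 9 members. Lipa, the lysosomal acid lipase that hydrolyses cholesteryl esters and triglycerides, was the most abundant member, at 205, 126 and 149.7 FPKM in wild-type, 264, 296 and 257 in M-Shp2-/- and 272, 301 and 257 in SHP099 libraries. Nceh1, which hydrolyses cholesteryl esters outside the lysosome, was at 37.3, 34.98 and 35.1 FPKM in wild-type, 57.4, 65.3 and 53.2 in M-Shp2-/- and 55.1, 57.7 and 46.5 in SHP099 libraries. Atp13a2, a lysosomal P5-type ATPase that exports polyamines, was at 37.4, 44.96 and 39.8 FPKM in wild-type, 75.3, 68.8 and 63.6 in M-Shp2-/- and 77.3, 75.1 and 77.2 in SHP099 libraries. In these 3 genes the M-Shp2-/- and SHP099 values overlapped, and wild-type replicate 1 held the highest wild-type level of Lipa by a wide margin. Acox3, a peroxisomal oxidase of branched-chain acyl-CoAs, was at 13.1, 16.5 and 17.8 FPKM in wild-type, 21.9, 22.7 and 25.9 in M-Shp2-/- and 41.2, 33.1 and 34.1 in SHP099 libraries, and every SHP099 value was above every M-Shp2-/- value. Ptgr2, a prostaglandin reductase, was at 7.95, 8.56 and 8.25 FPKM in wild-type, 12.5, 11.8 and 11.3 in M-Shp2-/- and 11.4, 12.7 and 10.6 in SHP099 libraries, with SHP099 and M-Shp2-/- interleaved. Mettl7a1 was at 4.04, 4.98 and 5.22 FPKM in wild-type, 7.51, 8.24 and 18.1 in M-Shp2-/- and 14.5, 16.04 and 11.5 in SHP099 libraries. M-Shp2-/- replicate 3 was the highest of the 9 for Mettl7a1, at more than its group's other 2 values together, and the gene has close paralogs, so its reads are uncertain. Acbd5, which tethers peroxisomes to the endoplasmic reticulum, and Gdpd1 and Pla2g12a had folds of means of 1.33 to 1.42 in M-Shp2-/- and 1.36 to 1.66 in SHP099 over wild type.

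Redox, mitochondrial and cofactor genes made up 7 members. Cox6a2, the heart and muscle isoform of cytochrome c oxidase subunit 6A, had the highest ratio of all members, 1.61, at 9.55, 10.3 and 6.397 FPKM in wild-type, 16.6, 17.2 and 17.8 in M-Shp2-/- and 23.96, 20.7 and 20.7 in SHP099 libraries. Gclm, the modifier subunit of glutamate-cysteine ligase in glutathione synthesis, was at 102, 82.1 and 41.7 FPKM in wild-type, 143, 135 and 161 in M-Shp2-/- and 172, 181 and 162 in SHP099 libraries. Both genes were lowest in wild-type replicate 3, and in both every SHP099 value exceeded every M-Shp2-/- value. For Gclm that separation was narrow, between 161 and 162 FPKM. Cox6a2 overlaps exons of Itgad, and Gclm those of Gm17494, on the opposite strand, whose reads cannot be told apart without strand. Idh1, the cytosolic NADP-dependent isocitrate dehydrogenase, Coasy, which completes coenzyme A synthesis, Mocos, which sulfurates the molybdenum cofactor, Chchd6, a subunit of the mitochondrial MICOS complex, and Lactb had folds of means of 1.29 to 1.596 in M-Shp2-/- and 1.45 to 1.73 in SHP099 over wild type. Idh1 was the single one of these 5 with a higher mean in M-Shp2-/- than in SHP099.

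Receptors, channels and carriers came next. Ptgir, the prostacyclin receptor, was at 29.8, 29.2 and 27.1 FPKM in wild-type, 44.2, 47.9 and 48.3 in M-Shp2-/- and 58.2, 49.3 and 44.2 in SHP099 libraries. Panx1, a channel that releases ATP, was at 8.83, 8.22 and 3.71 FPKM in wild-type, 14.3, 12.6 and 12.1 in M-Shp2-/- and 14.9, 14.3 and 12.3 in SHP099 libraries. For both, M-Shp2-/- and SHP099 overlapped, and wild-type replicate 3 held the lowest value, far under its group for Panx1. Slc22a4, a carrier of ergothioneine, was 1.77 times its wild-type mean in M-Shp2-/- and 1.98 times in SHP099. All 3 kept a ratio of 1.2 after median-of-ratios scaling.

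Kinases, phosphatases, ubiquitin ligase components and GTPase regulators made up 9 members. Rnf128, an E3 ubiquitin ligase of endosomes, was at 38.7, 34.2 and 29.2 FPKM in wild-type, 60.05, 60.9 and 78.1 in M-Shp2-/- and 67.2, 61.3 and 61.9 in SHP099 libraries. Aatk, a kinase of endosomal membranes, was at 4.87, 3.92 and 4.27 FPKM in wild-type, 8.11, 7.02 and 7.12 in M-Shp2-/- and 9.89, 8.74 and 7.98 in SHP099 libraries. M-Shp2-/- replicate 3 held the highest Rnf128 value while the other 2 M-Shp2-/- libraries lay just under all SHP099 values, and for Aatk SHP099 replicate 3 lay within M-Shp2-/-. The other 7 were Ppp3ca, the catalytic subunit of calcineurin, the phosphatase Ptpn4, the exchange factor Arhgef6, the GTPases Rab40c and Rab33b, the ubiquitin ligase Rchy1 and the ligase adaptor Kctd17. They had folds of means of 1.28 to 1.71 in M-Shp2-/- and 1.48 to 1.95 in SHP099 over wild type, and in 4 of them, Ppp3ca, Rab33b, Rchy1 and Kctd17, every SHP099 value was above every M-Shp2-/- value.

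DNA, chromatin and cell cycle genes made up 5 members. H1f0, a linker histone of non-dividing cells, was at 10.98, 13.7 and 7.76 FPKM in wild-type, 28.6, 24.8 and 22.6 in M-Shp2-/- and 23.4, 21.2 and 16.8 in SHP099 libraries. With all libraries it had the largest excess of M-Shp2-/- over SHP099 among the members, though SHP099 replicate 1 lay within the M-Shp2-/- values. Parp1, Top3a, which relaxes DNA with the BLM helicase, Cdk2 and Nsmce4a, of the SMC5/6 complex, had folds of means of 1.29 to 1.71 in M-Shp2-/- and 1.38 to 1.85 in SHP099 over wild type.

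Transcription and RNA genes made up 8 members, all at means of 6.35 to 16.2 FPKM. They were the zinc finger genes Zscan29, Zfp771 and Zfp746, the corepressor gene Cbfa2t2, Gtf2ird2, the exosome subunit gene Exosc5, the Integrator gene Ints6l and Paip2b, whose product binds the poly(A)-binding protein. Their folds of means were 1.29 to 1.55 in M-Shp2-/- and 1.33 to 1.997 in SHP099 over wild type, and all 8 means were lower in M-Shp2-/- than in SHP099. Zscan29 and Ints6l were without overlap in that direction.

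Genes of the endoplasmic reticulum, Golgi and secreted proteins made up 7 members. Mgat4b, a Golgi N-acetylglucosaminyltransferase that branches N-glycans, was at 131, 117 and 129.7 FPKM in wild-type, 175, 176 and 173 in M-Shp2-/- and 183, 194 and 172 in SHP099 libraries. B4gat1, a glucuronyltransferase that builds the glycan of dystroglycan, was at 4.13, 3.65 and 3.29 FPKM in wild-type, 7.52, 6.08 and 5.84 in M-Shp2-/- and 7.602, 6.57 and 5.63 in SHP099 libraries. Tgfbi, a secreted matrix protein, was at 4.81, 4.38 and 4.44 FPKM in wild-type, 11.4, 10.1 and 6.599 in M-Shp2-/- and 9.57, 6.99 and 7.53 in SHP099 libraries. The SHP2-deficient groups overlapped in all 3, and M-Shp2-/- replicate 3 held the lowest of the 6 SHP2-deficient Tgfbi values, well under the other 2 of its group. Atf6, a sensor of unfolded proteins, Txndc16, Adamts10, a secreted metalloprotease, and Tmcc1 had folds of means of 1.38 to 1.59 in M-Shp2-/- and 1.69 to 2.07 in SHP099 over wild type. The 3 cytoskeleton and cilium genes, the kinesin light chain gene Klc4, Mzt2 of the gamma-tubulin complex and Ift172 of intraflagellar transport, had folds of means of 1.37 to 1.61 in M-Shp2-/- and 1.43 to 1.73 in SHP099 over wild type.

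The remaining 11 members were put in no group. Gm14461 was at 12.9, 14.2 and 12.8 FPKM in wild-type, 19.6, 22.4 and 21.9 in M-Shp2-/- and 26.2, 25.5 and 20.7 in SHP099 libraries. Atraid was at 24.3, 23.9 and 21.8 FPKM in wild-type, 34.4, 37.8 and 33.2 in M-Shp2-/- and 36.7, 37.9 and 36.5 in SHP099 libraries. Htatip2 was at 35.5, 33.7 and 33.8 FPKM in wild-type, 46.2, 45.7 and 52.02 in M-Shp2-/- and 64.2, 64.8 and 52.7 in SHP099 libraries. In Htatip2 every SHP099 value was above every M-Shp2-/- value while the other 2 genes had groups that overlapped. N4bp2l1 was at 4.300, 5.99 and 7.14 FPKM in wild-type, 9.75, 8.99 and 13.5 in M-Shp2-/- and 14.2, 18.4 and 14.03 in SHP099 libraries, and Nhlrc3 at 41.9, 41.5 and 40.8 FPKM in wild-type, 50.4, 52.95 and 59.1 in M-Shp2-/- and 60.2, 60.98 and 52.1 in SHP099 libraries. N4bp2l1 had 3 groups without overlap, and for Nhlrc3 SHP099 replicate 3 lay within M-Shp2-/-. Gm5617, Pcmtd2, Fam53b, Tmem203, Natd1 and Tmem62 had folds of means of 1.35 to 1.78 in M-Shp2-/- and 1.34 to 1.87 in SHP099 over wild type.

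**Figure D4:**
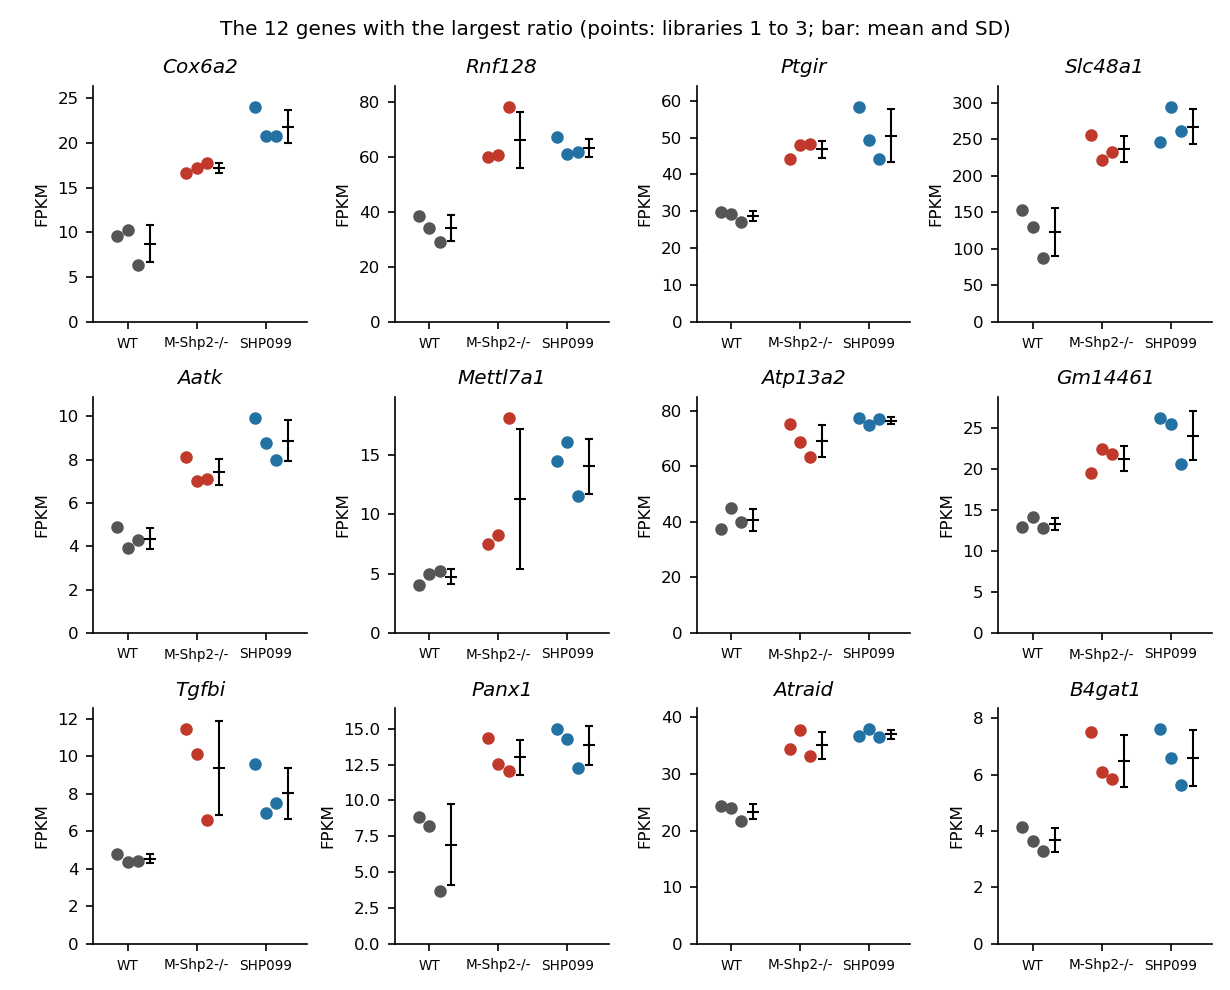
FPKM in each of the 9 libraries (points; bar, mean and SD of 3) for the 12 members with the highest ratio of the lowest SHP2-deficient to the highest wild-type library, on axes that start at 0. The ratio is largest for Cox6a2, at 1.61, and M-Shp2-/- replicate 3 stands above its group for Mettl7a1 and below it for Tgfbi.

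Between M-Shp2-/- and SHP099 most members had lower values in M-Shp2-/-, and none passed the test with all libraries. The median log2 difference over the 67 members was -0.13, against 0.02 over the 11450 genes tested, and 59 of 67 lay below 0. Every M-Shp2-/- value was under every SHP099 value for 20 of the 67 members (29.9%; 11.1% of the 8285 genes, which no such floor chose), and above for 0 (7.99% of the 8285). These counts describe genes chosen through the lowest of the same 6 values, which was in M-Shp2-/- replicates 1, 2 and 3 for 14, 22 and 19 members and in SHP099 replicate 3 for 12, and how far the choice made the lean was not tested. Differences in the direction of SHP099 included those of Acox3 (log2 -0.60), N4bp2l1 (-0.50), Hscb (-0.39) and Mettl7a1 (-0.38). The 8 members above 0 included H1f0 (0.30), Tgfbi (0.18), Nceh1 (0.14), Rnf128 (0.05) and Ptgr2 (0.04). Without M-Shp2-/- replicate 3, H1f0 was at 0.38, Tgfbi at 0.39, Nceh1 at 0.21, Ptgr2 at 0.07 and Rnf128 at -0.07.

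With all libraries, limma called 8 of 11450 genes (0.0699%) at an adjusted p of at most 0.05, Fos, Ccl9 and Il1rn higher in M-Shp2-/- (0.0262%) and Ptpn11, H2-M3, H2-Q5, H2-Q6 and H2-Q7 lower (0.0437%). None of the 8 is a member. With the replicate block the 8 became 0. The H2-Q genes are near-identical copies whose reads are uncertain. Limma called 0 of the 67 members, 10 had an unadjusted p under 0.05, all of them lower in M-Shp2-/- (702 of the genes tested were lower and 735 higher at that level), and voom on the recovered reads called 14 genes and 0 members. A count of 0 does not show that the levels were equal. The smallest adjusted p of a member by limma was 0.198, for Acox3, whose difference of -0.60 ± 0.11 (SE) showed in all 3 libraries of each group.

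This count turned on single libraries. Without M-Shp2-/- replicate 3, limma called 2277 genes (19.9%), 1374 higher and 903 lower (7.89%) in M-Shp2-/-, with 2 libraries left in that group. The members' median was then -0.14, against 0.05 over all genes tested, and 10 of 67 lay above 0. Limma called 8 members (11.9%), all lower in M-Shp2-/-: Acox3 (log2 -0.67), Tmcc1 (-0.50), Mettl7a1 (-0.75), N4bp2l1 (-0.66), Gclm (-0.30), Cox6a2 (-0.35), Htatip2 (-0.38) and Ppp3ca (-0.27), with adjusted p from 0.0104 to 0.0496. Mettl7a1 and N4bp2l1 are 2 of the genes for which M-Shp2-/- replicate 3 lay nearer to SHP099 than its group did. Without M-Shp2-/- replicate 2 limma called 2 genes, and without M-Shp2-/- replicate 1 or any single SHP099 replicate it called 0 genes, and 0 members in each of these. Members at an unadjusted p under 0.05 then numbered 3 to 17.

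**Figure D5:**
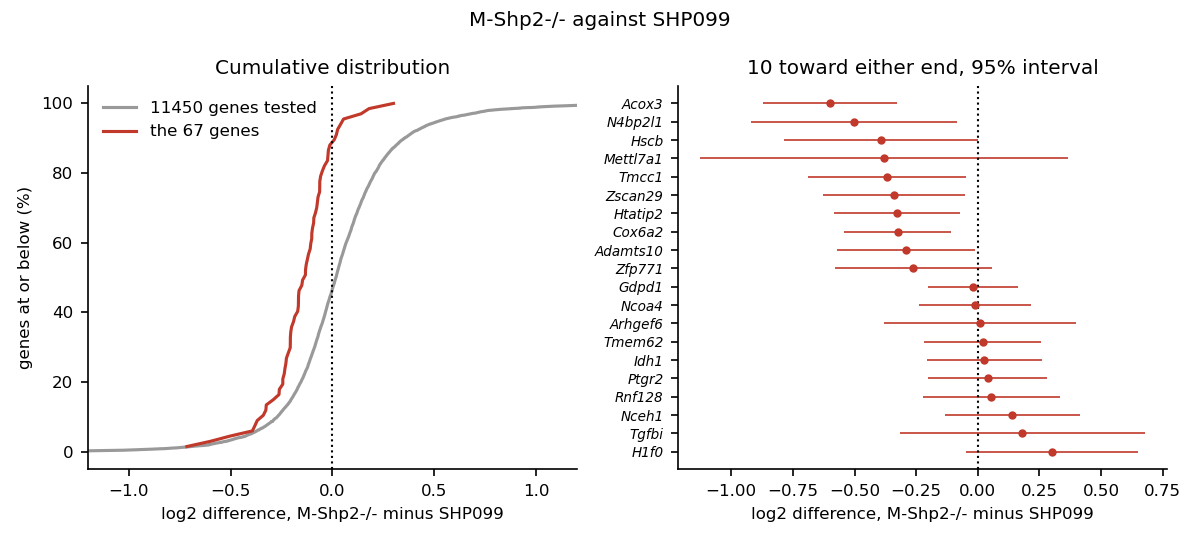
Left, the percentage of genes at or below each log2 difference of M-Shp2-/- from SHP099, for the 67 members (red) and the 11450 genes tested (grey); right, the difference with its 95% interval by limma for 10 members toward either end. The members' median is -0.13, against 0.02 over all genes tested, and 0 members were called.

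The comparisons that chose the members had these backgrounds in limma, from which nothing is read about them. Against wild type, M-Shp2-/- had 10 genes called of 11450 (0.0873%), 0 higher (0.0%) and 10 lower (0.0873%), and 0 members. At an unadjusted p under 0.05 there were 1204 genes and, as the choice fixed, all 67 members. Without any one library the 10 became 1 to 8: 2 without wild-type replicate 1, 1 without wild-type replicate 2, 5 without wild-type replicate 3, and 1 without M-Shp2-/- replicate 1 or replicate 2. SHP099 had 797 genes called (6.96%), 521 higher (4.55%) and 276 lower (2.41%), and 55 of the 67 members (82.1%). That count of genes was 1273 without wild-type replicate 3, 284 without wild-type replicate 1, 399 without wild-type replicate 2, and 90, 47 and 116 without SHP099 replicates 1, 2 and 3.

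Gene lists were counted in the same way, beside the 11.8% of genes higher and the 2.26% lower in both groups without overlap, which after median-of-ratios scaling were 3.89% and 5.88%. The first size given for a list is its number of genes among the 8285, and counts between M-Shp2-/- and SHP099 are over its genes among the 11450 tested, of which 735 were higher and 702 lower in M-Shp2-/- at an unadjusted p under 0.05, and 1374 and 903 were called without M-Shp2-/- replicate 3. In each of the 16 lists given here limma called 0 genes between M-Shp2-/- and SHP099, and voom called 1, Cd36. Of 20 Nrf2 and glutathione genes, 9 were higher in both groups than in wild type (Gclm, Gclc, Srxn1, Nqo1, Prdx1, Txnrd1, Keap1, Mgst1 and Cat) and 1, Gpx3, was lower, and 5 and 1 were so after median-of-ratios scaling. Gclc, the catalytic partner of Gclm, was at 42.3, 30.8 and 24.6 FPKM in wild-type, 46.2, 46.2 and 53.3 in M-Shp2-/- and 55.2, 56.8 and 49.8 in SHP099 libraries, Srxn1, sulfiredoxin, at 349, 234 and 172 FPKM in wild-type, 417, 435 and 408 in M-Shp2-/- and 559, 617 and 531 in SHP099 libraries, and Prdx1, a peroxiredoxin, at 1351, 1097 and 1003 FPKM in wild-type, 1557, 1486 and 2149 in M-Shp2-/- and 1927, 2031 and 2329.9 in SHP099 libraries. Gclc did not keep its separation after that scaling, while Srxn1 and Prdx1 did. Between M-Shp2-/- and SHP099, 4 of the 23 genes tested were higher and 3 lower at an unadjusted p under 0.05, and without M-Shp2-/- replicate 3 limma called 4 higher and 7 lower.

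Of 42 lysosome and autophagy genes, 11 were higher in both groups and 2 lower, which after median-of-ratios scaling became 2 (Lipa and Uvrag) and 3. Npc1, which moves cholesterol out of lysosomes, was at 84.7, 90.9 and 84.1 FPKM in wild-type, 108, 108 and 129 in M-Shp2-/- and 136, 119 and 114 in SHP099 libraries. Its separation was among those lost on that scaling. Set against SHP099, M-Shp2-/- had 8 of the 42 tested higher and 1 lower at an unadjusted p under 0.05, and 14 and 5 were called without M-Shp2-/- replicate 3. Cholesterol and lipid genes (30) had 2 higher in both groups and 1 lower, and 1 and 1 after scaling. Between M-Shp2-/- and SHP099, 8 of the 33 tested were higher and 3 lower at an unadjusted p under 0.05, and 13 and 3 were called without M-Shp2-/- replicate 3.

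FoxO and growth-factor-withdrawal genes (17) had 4 higher in both groups and 0 lower, and 0 of either after scaling. Between M-Shp2-/- and SHP099, 10 of the 24 tested were lower and 0 higher at an unadjusted p under 0.05, and 14 were called lower and 0 higher without M-Shp2-/- replicate 3. Interferon-stimulated genes (34) had 0 higher and 7 lower, the same counts after scaling. Between M-Shp2-/- and SHP099, 9 of the 39 tested were lower and 0 higher at an unadjusted p under 0.05, and 9 and 0 were called without M-Shp2-/- replicate 3. Chemoattractant and purine receptor genes (18) had 0 higher and 4 lower, and 0 and 5 after scaling. PI3K, phosphoinositide and RAS-MAPK genes (45) had 7 higher and 0 lower, and 1 of each after scaling. At an unadjusted p under 0.05, M-Shp2-/- exceeded SHP099 in 4 of 22 receptor genes tested and lay under it in 2, with 1 and 6 of 51 for PI3K and RAS-MAPK genes. Without M-Shp2-/- replicate 3 limma called 8 and 6 of the first list and 5 and 12 of the second. No gene of these 4 lists is a member.

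Of the smaller lists, macrophage transcription factors (27) had 1 gene higher in both groups and 2 lower, clock genes outside those left out by name (8) had 1 and 2, and p53 targets (12) had 1 and 0. Glucocorticoid-response genes (11) and MHC class II genes (6) had 0 of either. After scaling the same 5 lists had 0 and 4, 1 and 2, 0 and 0, 0 and 0, and 0 and 0. Among symbol families, Zfp genes (119) had 18 higher and 2 lower, with Zfp771 and Zfp746 as members, and solute carriers (130) 21 and 4, with Slc48a1 and Slc22a4. Respiratory chain subunits (86) had 7 higher and 0 lower, with Cox6a2 as a member, and cytosolic ribosomal proteins (82) had 1 and 0. After scaling these 4 families had 6 and 4, 8 and 9, 1 and 2, and 0 and 7. Cox6a2 was the 1 respiratory chain gene that stayed higher. In the lists of this paragraph, the counts of genes above and under SHP099 in M-Shp2-/- at an unadjusted p under 0.05 were 3 and 2 of 30 tested for transcription factors, 1 and 2 of 11 for clock genes, 1 and 1 of 18 for p53 targets, 2 and 1 of 12 for glucocorticoid-response genes, and 0 and 0 of 7 for MHC class II genes. For the families they numbered 8 and 2 of 253 tested (Zfp), 13 and 11 of 168 (solute carriers), 0 and 1 of 92 (respiratory chain) and 1 and 2 of 86 (ribosomal). Without M-Shp2-/- replicate 3 limma called 6 and 6, 1 and 3, 0 and 5, 0 and 3, and 1 and 0 in those smaller lists, and 13 and 5, 27 and 21, 20 and 2, and 2 and 1 in the families, each in the order above.

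In features the choice did not use, members were close to the genes that could have passed. The median transcript length was 1628 bases against 1604, the median GC content 52.1% against 50.5%, and 66 of 67 members (98.5%) were protein coding against 93.7%. The members lay on 19 chromosomes, with 7 each on chromosomes 2, 5, 7 and 11. Exons of a gene on the opposite strand overlapped 20 of 67 members (29.9%, against 30.2%), and for these the reads of both genes cannot be told apart without strand. Besides Cox6a2 and Gclm they included Slc48a1 (Hdac7), Atraid (Slc5a6), Zscan29 (Tubgcp4), Tmcc1 (Gm20404 and Gm8203), Exosc5 (Tmem91), Gtf2ird2 (Ncf1), Rab40c (Gm16278), Ptgr2 (Gm47484), Rab33b (Gm38160), Cdk2 (Pmel), H1f0 (Gm49544), Rchy1 (Thap6), Acox3 (4931431C16Rik), Tmem203 (Ndor1), Txndc16 (Gpr137c), Tmem62 (Gm44325) and Nhlrc3 (Gm16206). On the same strand, exons of B4gat1, Gclm, N4bp2l1 and Parp1 overlapped those of another gene. The median coefficient of variation of a member was 10.2% in wild-type, 7.60% in M-Shp2-/- and 9.53% in SHP099 libraries, against 12.4%, 11.5% and 7.30% over the 8285 genes, with groups that had been required not to overlap.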

How the data were processed

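The deposited values were FPKM per gene, which the authors made from poly-A RNA libraries. The submitters' processing notes name CASAVA 1.8, HISAT2 2.0.4 and HTSeq 0.9.1, while the FPKM tool, build, gene models and strand counted are not given in the sources used here. Of the 54059 identifiers, 53706 were matched to GENCODE M21, all 67 members among them. The FPKM steps gave whole reads (within 0.05 of a read, for values of up to 50 reads) in 96.3% to 96.7% of values, against 10% by chance, with 19.8 to 213 as chi-square over degrees of freedom between replicates.

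Groups were compared with limma 3.58.1 in R 4.3.3 on values transformed as log2(FPKM + 1). The 11450 genes that averaged 1 FPKM or more entered the fit, with a trend in the prior variance and Benjamini-Hochberg adjustment over all of them. Genes were called when the adjusted p did not exceed 0.05. Fold changes on this scale are smaller than those of FPKM for low genes. The fit was tested on simulated data, where it missed part of the genes that had been changed. Members, lists and counts were made in Python 3.11.15. Named members were the 12 with the highest ratio, the 10 with the highest mean and the 5 at either end of the M-Shp2-/- to SHP099 difference, and others were named by role. The members, the 16 gene lists, the 14 marker lists and the 10 motifs were chosen with earlier results of these data known. Alternatives were other pseudocounts, filters, scalings, thresholds and fits, voom on recovered reads, a replicate block and each library left out. A table of transcript spans was not used here, and the values of 1 member and 1 further list are not reported here.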

Additional observations from a re-analysis of the deposited data

How the results depend on the processing

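The number of members, 67, was 132 at a minimum mean of 1 FPKM, 974 at a ratio of 1, 2 at a ratio of 1.5, 18 with median-of-ratios scaling and 22 with quantile normalization, and 69 to 185 with a library left out. Leaving a library out can by construction only loosen the ratio, while the mean was taken over the libraries that remained. Genes called between M-Shp2-/- and SHP099, 8 by limma, were 3 without a filter on low values, 17 at a minimum mean of 5 FPKM, 3 with all 9 libraries in a single fit, 14 by voom, 0 at an adjusted p of 0.005 with a log2 difference of at least 1, and 0 to 2277 with a library left out. With the replicate block the count was 0, and against wild type the block gave 2 genes for M-Shp2-/- (10 without it) and 591 for SHP099 (797 without it). Residuals of libraries with the same number correlated at -0.01, 0.18 and -0.05 between M-Shp2-/- and SHP099, at 0.49, -0.43 and 0.19 between wild type and M-Shp2-/-, and at -0.04, -0.09 and 0.45 between wild type and SHP099, against -0.63 to 0.54 for libraries with different numbers, and the labels name no pairing. Members called were 0 to 8 with a library left out, and 0 in the other alternatives. Left out in turn, libraries gave 1 to 8 genes for M-Shp2-/- against wild type and 47 to 1273 for SHP099 against wild type; these and the block against wild type were alternatives chosen after seeing the data. The members' median log2 difference from wild type, 0.55 in M-Shp2-/- and 0.69 in SHP099, was 0.39 and 0.52 with a pseudocount of 5, 0.40 and 0.57 with median-of-ratios scaling and 0.38 and 0.56 with quantile normalization; with a library left out it was 0.47 to 0.58 and 0.64 to 0.77. For 33 of the members named here, 561 values under alternatives were compared, of which 538 kept sign and side of the threshold. Of the rest, 6 were called without M-Shp2-/- replicate 3, and 17, in 8 of the 33 never called, changed sign between M-Shp2-/- and SHP099. Arhgef6 turned to -0.00176 with median-of-ratios scaling and -0.0237 with quantile normalization. The other sign changes came with a library left out, over which the log2 difference ranged from -0.135 to 0.148 for Arhgef6, -0.119 to 0.0716 for B4gat1, -0.0847 to 0.0383 for Lipa, -0.0829 to 0.0384 for Ncoa4, -0.199 to 0.000725 for Paip2b, -0.192 to 0.00337 for Ptgir, -0.0155 to 0.105 for Ptgr2 and -0.0663 to 0.12 for Rnf128. Outside the 33, Tmcc1 and Ppp3ca were also called without M-Shp2-/- replicate 3. In that fit the log2 difference changed sign for Gm5617 (-0.063 to 0.041), Fam53b (-0.062 to 0.031), Ift172 (-0.071 to 0.025) and Idh1 (0.026 to -0.044). The cause of these changes was not tested. Members rested on a median of 886 reads and at the least on 140, and the share of counting error in the spread of low members was not tested.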
